A study of Mus musculus with 120 samples.

Results

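Complement and coagulation genes were followed in liver across a panel of mouse strains. The set held 46 listed genes, chosen by symbol, and every array feature whose annotation names such a gene was taken. Of these, 42 genes had a feature that names a single gene, with 58 features in all out of 45037 on the array. C3, Cfd, C4b and Cpb2 had none and were not analysed here. All 42 genes passed the filter on low values, as did 57 of the 58 features, and the feature with the highest mean stood for its gene.

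The livers came from 10-week-old males fasted for 4 h. The reference strain was C57BL/6J (B6), a common laboratory strain, and the donor strain was MSM, an inbred strain of Japanese wild mice. The other 28 strains are consomic: B6 mice in which a chromosome, or part of it, was replaced by that of MSM. Chromosomes 1, 3, 4, 5, 8, 9, 11, 14, 15, 16, 17, 18, 19 and Y were replaced in single strains (B6-Chr1MSM and so on). Chromosomes 2, 6, 12, 13 and X were split between a C and a T strain, which in this panel stand for the centromeric and telomeric parts, and the labels give no boundary between them. Chromosome 7 had a whole, a C and a T strain, and B6-mtMSM carries the mitochondrial genome of MSM. Each of the 30 strains had 2 males and each male 2 arrays, 120 arrays in all, with no treatment other than the fast. With 2 males per strain, the comparisons rest on a spread shared by all strains.

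Complement and coagulation are cascades of proenzymes made mostly by hepatocytes and secreted into the blood. Complement starts on antibody through C1q and the proteases C1r and C1s, on sugars through mannose-binding lectins and their MASP proteases, or by the alternative pathway through factor B and properdin. These routes converge on C3 and end in the membrane attack complex of C5 to C9. Coagulation runs from the contact system and factor VII to prothrombin, whose active form cleaves fibrinogen, while antithrombin and the protein C system restrain it and plasmin dissolves the clot. Several of these genes are acute phase genes that inflammation induces in the liver. C1q is among the exceptions in source, since macrophages, the Kupffer cells of the liver, make most of it.

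Values are deposited log2 signals, whose spread around a feature's own mean is compressed, and not by the same amount for every feature. A difference between strains is therefore not a log2 fold change and its size cannot be set against that of another gene. Differences are given in thousandths of a log2 unit (mlog2) with the standard error of the fit, relative to the mean of the 2 B6 males. Where genes are set side by side, they are given in residual SDs, the gene's own spread between males of a strain. A gene is called where limma's adjusted p is below 0.05. The 7 tested hepatocyte markers had mean log2 signals from 12 to 14.8, and none of them was called in MSM, beside 24.7% of all genes.

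In MSM, 12 of the 42 genes were lower than in B6 and 2 were higher. Among all 11949 genes tested, 10.3% were lower and 14.5% higher, and the members' shares were 28.6% and 4.76%. The MSM mean lay below the B6 mean in 29 of the 42 members and in 4682 of the 11949 genes. The median t was −0.82 over the members and 0.58 over all genes. These counts describe the list and carry no test. A sequence difference under the array's probes could also change the signal in MSM and cannot be told apart from a transcript difference here. Lower in MSM were genes for prekallikrein, kininogen, prothrombin, factor XIII and 2 fibrinogen chains, with C8a, C4bp and Serping1 of complement and Serpinc1, Pros1 and Proz among the inhibitors of clotting. Higher were F7 and Plg. With the B6 and MSM males fitted alone, 5 of these 14 calls were lost: C4bp, F2, Fgg, Proz and Serpinc1 (adjusted p = 0.0613, 0.0681, 0.0562, 0.0633 and 0.0933). Under quantile normalization C8a, Klkb1 and Kng1 kept their calls and the other 11 lost them. For C4bp, Serping1, F13b, Fgb, Fgg, Serpinc1 and Plg that setting gave a t of 0, so it cannot show whether their calls hold. It also moved the median t of all genes from 0.58 to 6.05. Setting MSM against the mean of the other 29 strains called 19 members lower and 5 higher, beside 17.2% and 25.6% of all genes.

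**Figure D1:**
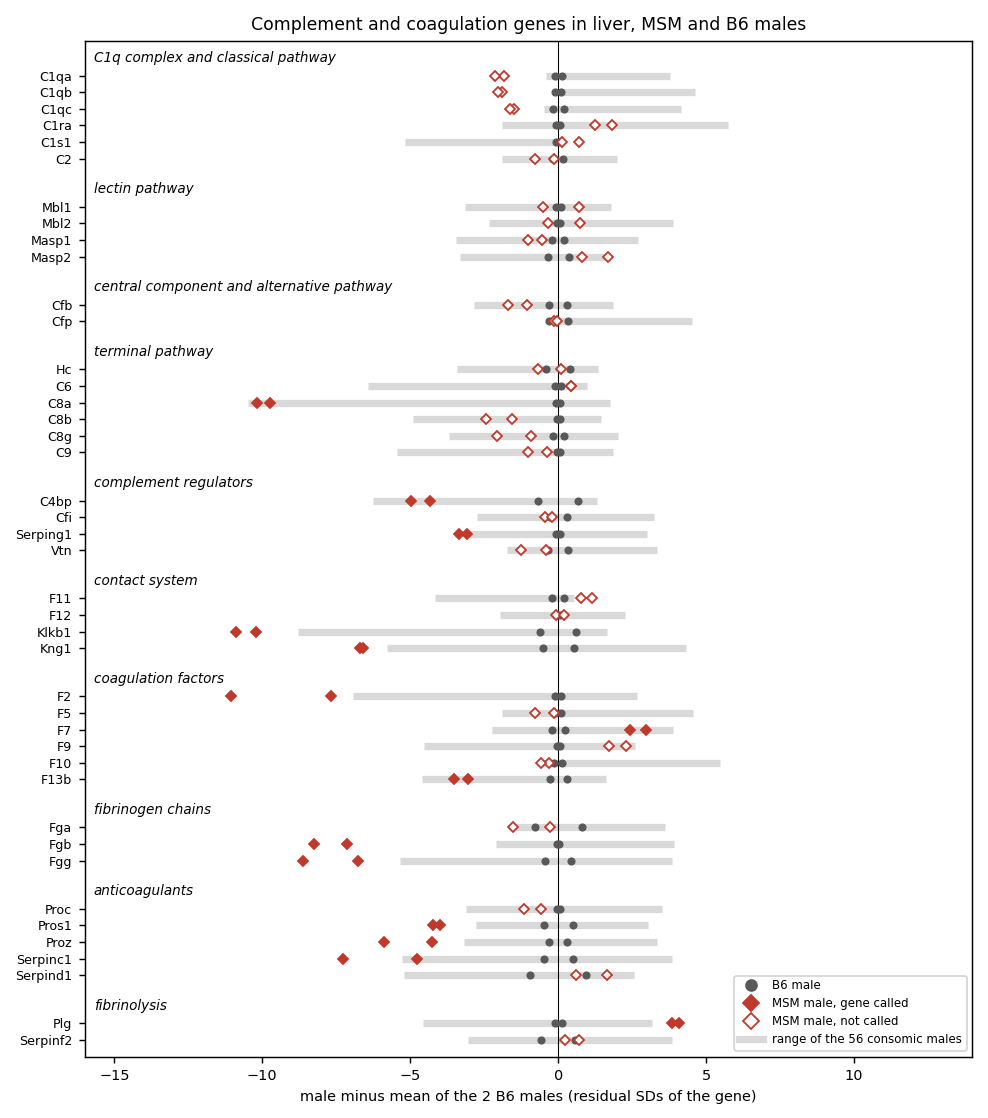
Liver signal of 42 complement and coagulation genes, grouped by role, as the male minus the mean of the B6 males in residual SDs of the gene (horizontal axis). Circles are the 2 B6 males, diamonds the 2 MSM males (filled where the gene was called) and grey bars the range of the 56 consomic males. Both MSM males lie below the grey bar for F2, Fgb, Fgg, Klkb1, Kng1, Pros1, Proz, Serping1, C1qa, C1qb and C1qc, and above it for Plg, C1s1 and F11. For C1s1 the B6 males lie above it as well. The share of all genes with both MSM males outside the bar is not given here, so these lists carry no comparison with other genes.

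In the classical pathway no gene was called between MSM and B6. The 3 chains of C1q, the recognition molecule that binds antibody on a target, were nevertheless lowest of all 60 males in the 2 MSM males. C1qa stood at −6.15 and −7.15 mlog2 in the MSM males, C1qb at −10.3 and −11.0 mlog2, and C1qc at −5.53 and −6.05 mlog2. No other male came as low for any of these 3 genes. The difference from B6 was −6.65 ± 3.32 mlog2 for C1qa (adjusted p = 0.140), −10.7 ± 5.36 for C1qb (adjusted p = 0.144) and −5.79 ± 3.66 for C1qc (adjusted p = 0.252). Against the mean of the other 29 strains, which does not rest on the B6 males alone, all 3 were lower, C1qa by −10.3 mlog2 (adjusted p = 0.00096), C1qb by −18.1 mlog2 (adjusted p = 0.00038) and C1qc by −9.49 mlog2 (adjusted p = 0.00467). C1ra and C1s1, the proteases that C1q activates, and C2, a substrate of C1s, were not called in MSM against B6. C4b had no feature and was not analysed here. For C1s1 the MSM males, at 0.453 and 0.0804 mlog2, were the 2 highest of all 60, and against the other strains it was higher by 1.38 mlog2 (adjusted p = 0.0155). The B6 males ranked next, 58th and 57th from the lowest, and the median male stood at −1.07 mlog2 for C1s1.

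Kupffer cell markers moved with C1q. Of 11 tested markers, 5 were lower in MSM than in B6 and 9 were lower than in the other strains, with none higher in either comparison. Over all genes, 10.3% were lower and 14.5% higher than in B6, and 17.2% and 25.6% against the other strains. The mean of the 11 markers was −2.62 and −2.61 residual SDs in the MSM males, the lowest of the 60 males, whose median was 0.208, on a scale where the B6 mean is 0. Mean log2 signals of the 11 ranged from 7.47 to 9.54, and the twelfth listed marker, Timd4, did not pass the filter at 7.417. In whole liver, fewer Kupffer cells and less RNA of these genes per cell cannot be told apart, and the part of the markers in the C1q result was not tested.

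The lectin and alternative pathways showed no called gene in MSM. Mbl1 and Mbl2, the mannose-binding lectins, stood at 0.016 ± 0.189 and 0.093 ± 0.468 mlog2 from B6. Masp1 and Masp2, their proteases, were at −0.321 ± 0.403 and 0.425 ± 0.339 mlog2, and Cfb, factor B, at −0.123 ± 0.0894 mlog2. Cfp, properdin, which stabilises the alternative convertase, was at −0.0457 ± 0.458 mlog2.

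Of the 6 terminal pathway genes, C8a fell and the other 5 were not called. C8a encodes the alpha chain of C8, the subunit that first inserts into the membrane. Its MSM males stood at −82.1 and −85.9 mlog2, against 0.656 and −0.656 mlog2 in the B6 males, and the difference was −84.0 ± 8.35 mlog2 (adjusted p = 4.3e-09), or −9.97 residual SDs. C8b, which encodes the beta chain and lies next to C8a with no protein-coding gene between them, stood at −2.05 and −3.24 mlog2 in the MSM males (difference −2.65 ± 1.31, adjusted p = 0.138). C8g, the gamma chain, was at −0.156 ± 0.104 mlog2 (adjusted p = 0.279). Against the other 29 strains C8b was lower in MSM by −2.61 mlog2 (adjusted p = 0.0264), so that C8a was called with either reference and C8b with the other strains as reference only. Hc, which encodes C5, C6 and C9 were at −0.067 ± 0.230, 7.62 ± 17.4 and −1.54 ± 2.18 mlog2. The standard errors and residual SDs of C6, C8a, C8b and C9 take in B6-Chr7TMSM, whose males lay far apart. C6 stood at −113 and −2.90 mlog2 in these males and C8a at −61.0 and −5.85, beside residual SDs of 17.6 and 8.43 mlog2. With that spread included, the test cannot show that C6, C8b and C9 were unchanged in MSM.

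Because C8a and C8b are neighbours that encode chains of the same complex, the 250 bases before the start of each are shown from the RefSeq table of GRCm38.p6, which is the C57BL/6J genome. The MSM sequence was not analysed here. Capitals mark matches on either strand to the motifs searched in all promoters: the STAT motif TTCNNNGAA, the C/EBP motif TTGCNNAA, the HNF1 motif GTTAAT and the TATA box TATAAA.
C8a (chr4:104876399-104876648, minus strand): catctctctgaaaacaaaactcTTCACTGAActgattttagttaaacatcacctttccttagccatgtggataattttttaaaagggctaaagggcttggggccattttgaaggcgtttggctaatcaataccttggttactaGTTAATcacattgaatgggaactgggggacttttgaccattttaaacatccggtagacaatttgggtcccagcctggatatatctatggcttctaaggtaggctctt
C8b (chr4:104766067-104766316, plus strand): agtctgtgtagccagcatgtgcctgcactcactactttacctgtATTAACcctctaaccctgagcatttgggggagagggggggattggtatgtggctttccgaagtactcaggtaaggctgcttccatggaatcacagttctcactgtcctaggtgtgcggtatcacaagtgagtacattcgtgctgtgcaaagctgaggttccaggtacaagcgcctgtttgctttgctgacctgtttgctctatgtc
The C8a window held a STAT motif whose first base lies at −228 from the start and a partial HNF1 motif at −107. The C8b window held a partial HNF1 motif at −206. Partial HNF1 motifs occurred in 6.52% of 27025 promoters and in 11 of the 36 member promoters in the table. A match is letters only and says nothing about binding.

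Among the complement regulators, C4bp and Serping1 fell. C4bp, whose product binds C4b and limits its activity, stood at −0.236 and −0.271 mlog2 in the MSM males against 0.0366 and −0.0366 in the B6 males (difference −0.253 ± 0.0541, adjusted p = 7.8e-04). Serping1, the C1 inhibitor that also blocks kallikrein, stood at −0.115 and −0.125 mlog2, below every other male (difference −0.120 ± 0.0370, adjusted p = 0.0166). The call of Serping1 was lost when any of the 4 males was left out (adjusted p from 0.0631 to 0.0949). Cfi and Vtn, factor I and vitronectin, were at −0.0142 ± 0.0431 and −0.0246 ± 0.0293 mlog2.

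In the contact system, Klkb1 and Kng1 fell. Klkb1 encodes plasma prekallikrein, the protease that releases bradykinin from kininogen, and Kng1 encodes that kininogen. Klkb1 stood at −18.3 and −19.5 mlog2 in the MSM males against 1.08 and −1.08 in the B6 males (difference −18.9 ± 1.78, adjusted p = 1.3e-09). Kng1 stood at −2.98 and −2.93 mlog2 against 0.236 and −0.236 (difference −2.95 ± 0.440, adjusted p = 7.0e-06). For both genes the MSM males were the 2 lowest of all 60 and did not overlap any other male. F11 and F12, factors XI and XII, were at 0.840 ± 0.868 and 0.0054 ± 0.0874 mlog2 and not called. Against the other strains F11 was higher in MSM by 1.93 mlog2 (adjusted p = 0.0140).

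Of the 6 coagulation factor genes, F2 and F13b were lower and F7 was higher. F2 encodes prothrombin. Its MSM males stood at −1.09 and −0.759 mlog2, with the B6 males at −0.0103 and 0.0103 (difference −0.926 ± 0.0978, adjusted p = 1.4e-08). F13b, the carrier subunit of the enzyme that cross-links fibrin, was at −0.303 and −0.348 mlog2 (difference −0.325 ± 0.0983, adjusted p = 0.0146). That call held without B6 male 2 and was lost without B6 male 1 or either MSM male (adjusted p up to 0.110). F7, which starts the extrinsic pathway with tissue factor, was at 0.949 and 0.772 mlog2 (difference 0.860 ± 0.316, adjusted p = 0.0442), and its call was lost when any of the 4 males was left out (adjusted p from 0.105 to 0.193), as it was without the filter and against the other strains (adjusted p = 0.0526 and 0.0629). F5, F9 and F10 were at −0.0784 ± 0.167, 0.170 ± 0.0841 and −0.0282 ± 0.0638 mlog2 and not called against B6. Against the other strains F9 was higher in MSM, by 0.263 mlog2 (adjusted p = 8.7e-04), and F10 and F5 were lower, by −0.120 and −0.294 mlog2 (adjusted p = 0.0348 and 0.0488).

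Of the 3 fibrinogen chains, Fgb and Fgg fell and Fga did not pass the test. The 3 genes lie next to each other on chromosome 3, and their products form the same secreted molecule. Fgb stood at −0.819 and −0.706 mlog2 in the MSM males against −0.0042 and 0.0042 in B6 (difference −0.762 ± 0.0983, adjusted p = 5.9e-07). Fgg stood at −0.155 and −0.121 mlog2 against −0.0080 and 0.0080 (difference −0.138 ± 0.0181, adjusted p = 7.7e-07). In residual SDs the Fgb and Fgg differences were −7.69 and −7.70. Fga stood at −0.0304 and −0.0054 mlog2 against −0.0157 and 0.0157, so that MSM and B6 males overlapped (difference −0.0179 ± 0.0198, adjusted p = 0.534), and its difference was −0.91 residual SDs. Against the other strains Fga was lower in MSM by −0.0358 mlog2 (adjusted p = 0.0433).

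Since the chains lie in a cluster and form the same molecule, the windows before their starts are shown in the order of the chromosome, with the same motifs in capitals.
Fgg (chr3:83007474-83007723, plus strand): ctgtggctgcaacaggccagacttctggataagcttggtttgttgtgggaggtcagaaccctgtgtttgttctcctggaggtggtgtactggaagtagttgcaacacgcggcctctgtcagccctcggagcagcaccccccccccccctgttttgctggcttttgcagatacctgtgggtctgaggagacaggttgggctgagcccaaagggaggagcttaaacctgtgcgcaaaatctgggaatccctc
Fga (chr3:83025903-83026152, plus strand): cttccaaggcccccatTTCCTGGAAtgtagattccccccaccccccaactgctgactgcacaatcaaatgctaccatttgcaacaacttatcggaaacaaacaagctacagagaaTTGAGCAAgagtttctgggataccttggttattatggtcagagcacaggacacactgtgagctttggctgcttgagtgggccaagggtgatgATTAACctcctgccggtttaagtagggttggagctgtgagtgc
Fgb (chr3:83049864-83050113, minus strand): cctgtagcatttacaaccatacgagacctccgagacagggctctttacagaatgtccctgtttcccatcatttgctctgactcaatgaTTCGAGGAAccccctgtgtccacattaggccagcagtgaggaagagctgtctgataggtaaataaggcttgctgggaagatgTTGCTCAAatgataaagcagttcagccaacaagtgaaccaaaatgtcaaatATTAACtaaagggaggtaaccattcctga
Fga and Fgb each held a STAT motif (first base at −234 and −162) and a C/EBP motif (−135 and −80). Each also held a partial HNF1 motif (−43 and −29). None of the 4 motifs was found in the Fgg window, which says only that these letters are not there. STAT motifs occurred in 7.18% and C/EBP motifs in 9.55% of the 27025 promoters, and in 6 and 8 of the 36 member promoters. The TATA box letters occurred in 13% of all promoters and in 3 of the 36.

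Among the anticoagulants, 3 of 5 fell. Serpinc1 encodes antithrombin, the main inhibitor of thrombin. It stood at −0.133 and −0.0871 mlog2 in the MSM males against −0.0089 and 0.0089 in B6 (difference −0.110 ± 0.0184, adjusted p = 3.7e-05). Pros1 encodes protein S, the cofactor of protein C, and stood at −5.19 and −4.89 mlog2 against 0.598 and −0.598 (difference −5.04 ± 1.21, adjusted p = 0.00249). Proz encodes protein Z, a cofactor in the inhibition of factor Xa, and stood at −2.11 and −2.91 mlog2 against −0.146 and 0.146 (difference −2.51 ± 0.489, adjusted p = 2.9e-04). The MSM males were the 2 lowest of 60 for Pros1 and Proz. Proc, protein C, and Serpind1, heparin cofactor II, were at −0.0134 ± 0.0156 and 0.0306 ± 0.0270 mlog2, and against the other strains Serpind1 was higher in MSM by 0.0526 mlog2 (adjusted p = 0.0295).

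Beside F7, Plg was the member that rose in MSM. It encodes plasminogen, the precursor of the fibrin-degrading protease plasmin, and its MSM males, at 0.136 and 0.145 mlog2, were the 2 highest of all 60 (difference 0.141 ± 0.0354, adjusted p = 0.00363). Serpinf2, the plasmin inhibitor, was at 0.0345 ± 0.0726 mlog2.

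A consomic panel shows which parental differences are also seen with the chromosome on which the gene itself lies. The 42 members made 51 pairs of a gene and a strain carrying its chromosome. In 9 pairs, of 8 genes, the strain differed from B6, 8 lower and 1 higher. Over all genes, 5.43% of 15861 such pairs were called, 508 lower and 353 higher, and the members' share was 17.6%. Of the 14 members called in MSM, 7 were called the same way in such a strain, beside 23.6% of all genes called in MSM. Under quantile normalization the own-chromosome calls of C8a, Klkb1 and Kng1 held and those of the other 5 genes were lost. That setting put 17 of 35 checked differences, in MSM and in consomic strains, at 0, where no call can hold. A difference in transcript level and a sequence difference under the array's probes cannot be told apart in these pairs, as in MSM.

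**Figure D2:**
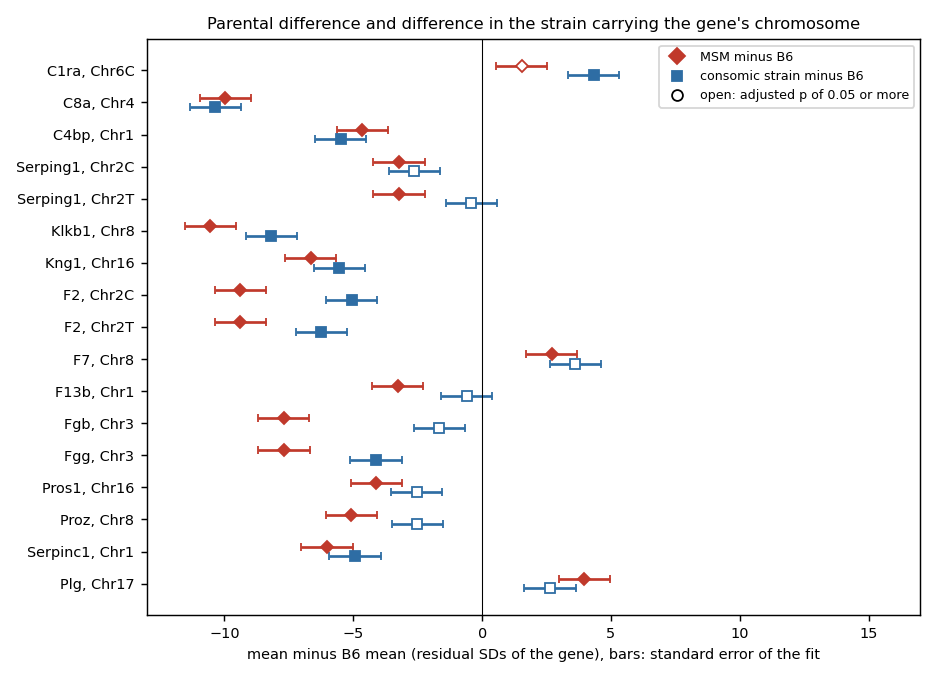
Difference from B6 in MSM (red diamonds) and in the consomic strain carrying the gene's chromosome (blue squares) in residual SDs of the gene (horizontal axis), with the standard error of the fit as bars and open symbols where the adjusted p was 0.05 or more. C8a in B6-Chr4MSM reached −10.4 residual SDs beside −9.97 in MSM, whereas Fgb in B6-Chr3MSM reached −1.66 beside −7.69.

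C8a and Klkb1 were lower with their own chromosome. In B6-Chr4MSM, C8a stood at −88.3 and −86.2 mlog2 (difference −87.3 ± 8.35, adjusted p = 7.6e-08), which was 104% of the MSM difference. In B6-Chr8MSM, Klkb1 stood at −15.8 and −13.5 mlog2 (difference −14.7 ± 1.78, adjusted p = 5.6e-06), 77.5% of the MSM difference. Both calls held with any of the 4 males left out. MSM and the consomic strain did not differ by the test for either gene: MSM minus B6-Chr4MSM was 3.25 ± 8.35 mlog2 for C8a and MSM minus B6-Chr8MSM −4.26 ± 1.78 mlog2 for Klkb1 (adjusted p = 0.836 and 0.0782).

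Kng1, C4bp and Serpinc1 were also lower with their own chromosome. Kng1 stood at −2.36 and −2.57 mlog2 in B6-Chr16MSM (difference −2.47 ± 0.440, adjusted p = 0.00496), below every male that carries chromosome 16 of B6. C4bp stood at −0.342 and −0.257 mlog2 in B6-Chr1MSM (difference −0.299 ± 0.0541, adjusted p = 0.00278). Serpinc1 stood at −0.0837 and −0.0963 mlog2 in the same strain (difference −0.0900 ± 0.0184, adjusted p = 0.0111). These were 83.5%, 118% and 82.0% of the MSM differences. The Serpinc1 call was lost without any of the 4 males (adjusted p from 0.0754 to 0.265), that of Kng1 without B6 male 1 or either B6-Chr16MSM male (up to 0.249) and that of C4bp without male 1 of B6 or of B6-Chr1MSM (up to 0.180). Against the other strains the 3 differences had adjusted p of 5.0e-06, 0.00103 and 3.6e-05.

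F2 was lower in both strains with part of chromosome 2. It stood at −0.673 and −0.326 mlog2 in B6-Chr2CMSM (difference −0.499 ± 0.0978, adjusted p = 0.0136) and at −0.684 and −0.548 mlog2 in B6-Chr2TMSM (difference −0.616 ± 0.0978, adjusted p = 0.00138). These were 53.9% and 66.6% of the MSM difference, and MSM was lower than either strain, by −0.426 ± 0.0978 and −0.309 ± 0.0978 mlog2 (adjusted p = 0.00155 and 0.0201). The call in B6-Chr2CMSM was lost without either B6 male or its own male 1 (adjusted p up to 0.577), and that in B6-Chr2TMSM without B6 male 2 or its own male 1 (up to 0.0724). Against the other strains, F2 was lower in both, by −0.563 and −0.680 mlog2 (adjusted p = 5.5e-06 and 2.5e-07). The C and T strains did not differ by the test (0.117 ± 0.0978 mlog2, adjusted p = 0.9995).

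**Figure D3:**
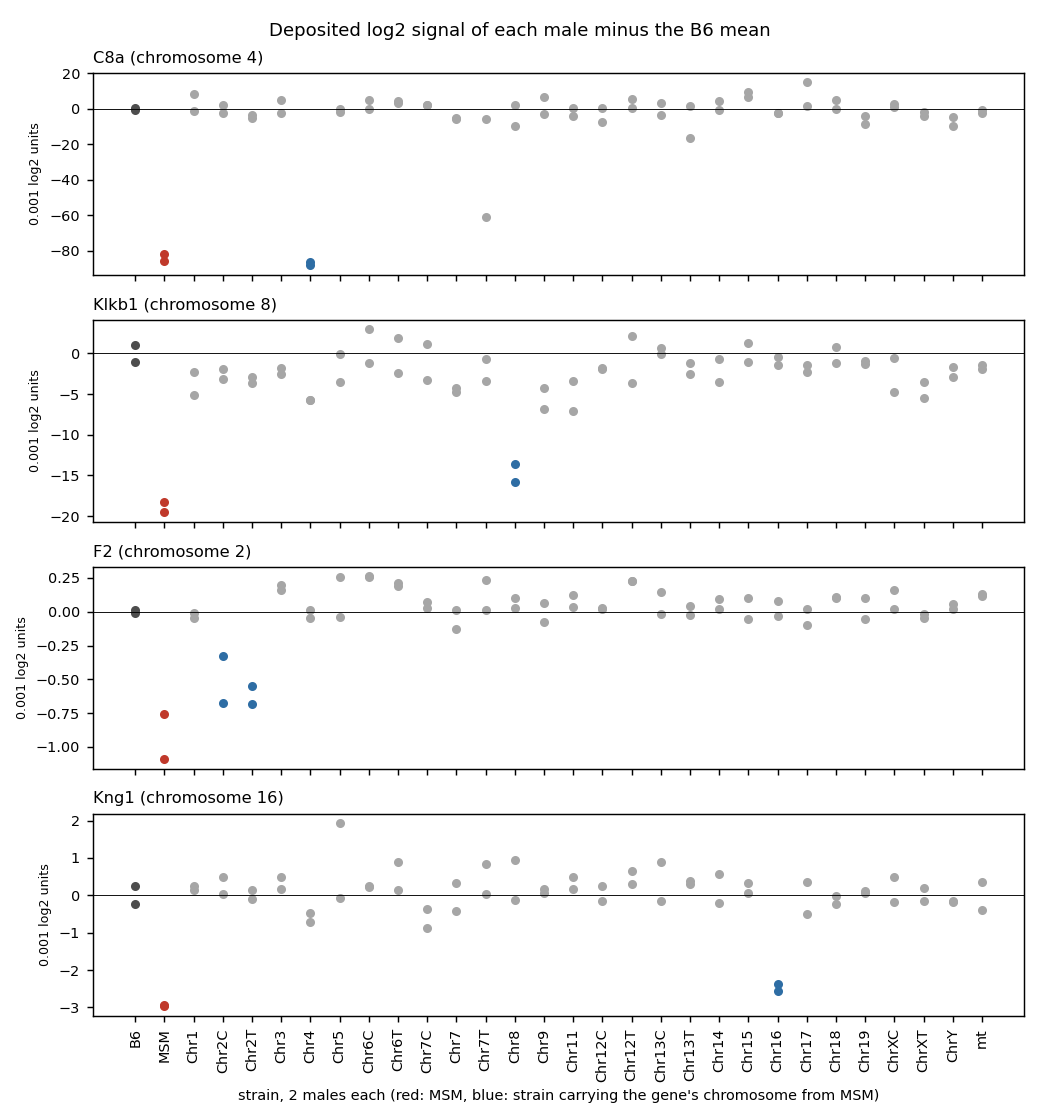
Deposited log2 signal of each male minus the B6 mean, in thousandths of a log2 unit (vertical axis), for C8a, Klkb1, F2 and Kng1 over 30 strains (horizontal axis), with 2 points per strain. Red marks MSM and blue the strains that carry the gene's chromosome from MSM, and these males lie lowest in all 4 genes. For C8a the next lowest is B6-Chr7TMSM male 1, at −61.0.

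The fibrinogen chains had less of their MSM difference in B6-Chr3MSM. Fgg stood at −0.0960 and −0.0515 mlog2 there (difference −0.0737 ± 0.0181, adjusted p = 0.0496), 53.3% of the MSM difference, and the call was lost without either B6 male or male 1 of the strain (adjusted p up to 0.604). It was also lost with all features fitted together, without the filter and with all males above the filter value (adjusted p = 0.0511, 0.0602 and 0.0510). Against the other strains Fgg was lower there by −0.0770 mlog2 (adjusted p = 3.8e-04). Fgb stood at −0.208 and −0.121 mlog2 (difference −0.165 ± 0.0983, adjusted p = 0.675), 21.6% of the MSM difference. MSM was lower than B6-Chr3MSM for both, by −0.0645 ± 0.0181 mlog2 for Fgg (adjusted p = 0.00869) and by −0.598 ± 0.0983 mlog2 for Fgb (adjusted p = 3.1e-05). Fga was at 0.0093 ± 0.0198 mlog2 in the strain. Of the 16 pairs of a member called in MSM and a strain carrying its chromosome, 6 differed between MSM and that strain, 37.5%, beside 41.7% of such pairs over all genes.

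C1ra was the member called in an own-chromosome strain but not in MSM. It stood at 1.11 and 2.18 mlog2 in B6-Chr6CMSM (difference 1.65 ± 0.377, adjusted p = 0.0343), where male 2 was the highest of all 60. In B6-Chr6TMSM it stood at 1.64 and 0.847 mlog2 (difference 1.25 ± 0.377, adjusted p = 0.261), and in MSM at 0.692 and 0.472. MSM was lower than B6-Chr6CMSM by −1.06 ± 0.377 mlog2 (adjusted p = 0.0365). The call of C1ra was lost without either B6 male or male 2 of the strain (adjusted p up to 0.435). C1s1, its neighbour on chromosome 6, was at −1.53 ± 0.634 and −1.81 ± 0.634 mlog2 in the C and T strains (adjusted p = 0.425 and 0.372). Against the other strains C1s1 was at −0.457 and −0.734 mlog2 there (adjusted p = 0.970 and 0.996).

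Other members called in MSM had values of the same sign in the strain with their chromosome that did not pass the test against B6. Proz was at −1.25 ± 0.489 mlog2 in B6-Chr8MSM (adjusted p = 0.385), Pros1 at −3.10 ± 1.21 in B6-Chr16MSM (adjusted p = 0.808), Plg at 0.0935 ± 0.0354 in B6-Chr17MSM (adjusted p = 0.676) and F7 at 1.15 ± 0.316 in B6-Chr8MSM (adjusted p = 0.150). Serping1 was at −0.0979 ± 0.0370 in B6-Chr2CMSM and −0.0157 ± 0.0370 in B6-Chr2TMSM (adjusted p = 0.557 and 0.973), and F13b at −0.0590 ± 0.0983 in B6-Chr1MSM (adjusted p = 0.955). With the mean of the other strains as reference, 11 pairs of 10 genes were called, 21.6% of the members' pairs beside 10.4% of all pairs. The pairs added were Proz in B6-Chr8MSM, at −1.86 ± 0.352 mlog2 (adjusted p = 0.00324), and Plg in B6-Chr17MSM, at 0.128 ± 0.0255 mlog2 (adjusted p = 0.00565).

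The remaining own-chromosome pairs were not called. The 3 C1q genes, on chromosome 4, were at 1.13 ± 3.32, 1.77 ± 5.36 and 0.848 ± 3.66 mlog2 in B6-Chr4MSM, and C8b at −3.18 ± 1.31 mlog2. Of the lectin pathway, Mbl1 was at −0.332 ± 0.189 mlog2 in B6-Chr14MSM, Mbl2 at 0.482 ± 0.468 in B6-Chr19MSM, Masp1 at −0.557 ± 0.403 in B6-Chr16MSM and Masp2 at 0.0639 ± 0.339 in B6-Chr4MSM. On chromosome 17, C2 was at −0.533 ± 0.339 mlog2 and its neighbour Cfb at −0.256 ± 0.0894 mlog2, and the 2 males of B6-Chr17MSM were the lowest of 60 for Cfb.

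On chromosome 15, C6 was at 12.6 ± 17.4 mlog2 and C9 at −4.39 ± 2.18 mlog2 in B6-Chr15MSM. Hc was at −0.650 ± 0.230 mlog2 in B6-Chr2CMSM and −0.313 ± 0.230 in B6-Chr2TMSM. C8g had opposite signs in these strains, −0.278 ± 0.104 and 0.155 ± 0.104 mlog2, and the difference of C and T was −0.433 ± 0.104 mlog2 (adjusted p = 0.0784). Among the 9 members on split chromosomes limma called 0 between the C and T strains and 2 had an unadjusted p below 0.05, beside 3.14% called of 2671 genes on those chromosomes.

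The members not yet given had own-chromosome differences below 3 residual SDs. F11 and F10 were at −0.683 ± 0.868 and 0.0514 ± 0.0638 mlog2 in B6-Chr8MSM, F5 at 0.127 ± 0.167 in B6-Chr1MSM, and F12 at −0.118 ± 0.0874 and −0.0273 ± 0.0874 in the C and T strains of chromosome 13. F9 was at 0.0536 ± 0.0841 and −0.115 ± 0.0841 mlog2, and Cfp at 1.19 ± 0.458 and 0.456 ± 0.458, in the C and T strains of chromosome X. Cfi was at 0.0110 ± 0.0431 mlog2 in B6-Chr3MSM, Vtn and Serpinf2 at 0.0074 ± 0.0293 and 0.0396 ± 0.0726 in B6-Chr11MSM, Proc at −0.0089 ± 0.0156 in B6-Chr18MSM and Serpind1 at 0.0082 ± 0.0270 in B6-Chr16MSM.

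**Figure D4:**
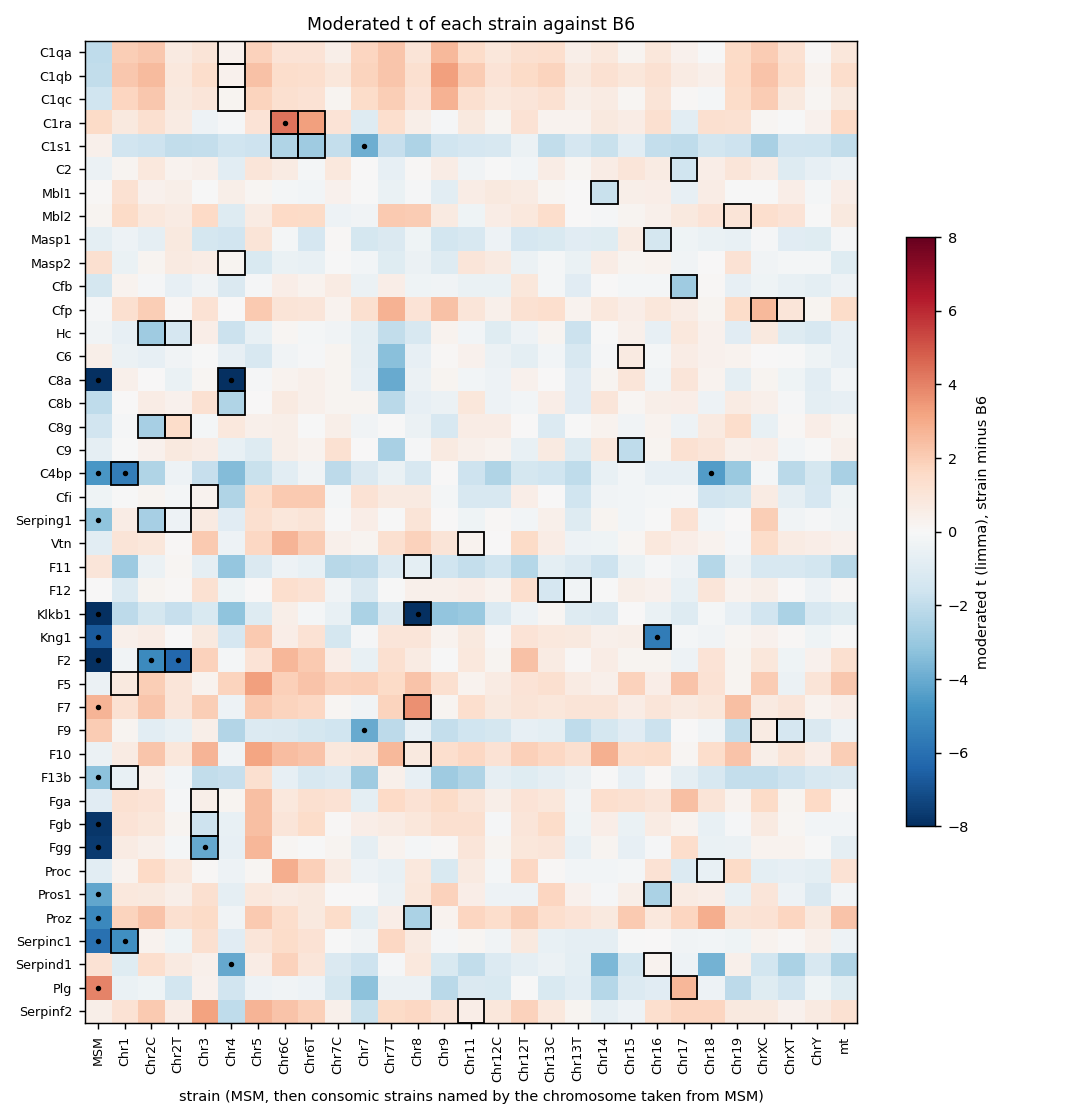
Moderated t of every strain against B6 (columns) for the 42 genes (rows), coloured from lower (blue) to higher (red), with the colour scale ending at 8 in either direction, black dots on called cells and outlines on strains that carry the gene's chromosome. Of the called cells outside the MSM column, 9 are outlined and 4 are not.

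Away from the gene's own chromosome, calls were few. Of 1125 such pairs, 4 were called against B6, 0.356%, beside 0.13% of all pairs, and all 4 were lower. C4bp stood at −0.276 and −0.211 mlog2 in B6-Chr18MSM (difference −0.243 ± 0.0541, adjusted p = 0.0306). Serpind1 stood at −0.0824 and −0.138 mlog2 in B6-Chr4MSM (difference −0.110 ± 0.0270, adjusted p = 0.0465). In B6-Chr7MSM, C1s1 stood at −1.68 and −3.31 mlog2 (difference −2.49 ± 0.634, adjusted p = 0.0390) and F9 at −0.294 and −0.386 mlog2 (difference −0.340 ± 0.0841, adjusted p = 0.0343). The calls of C4bp and Serpind1 were lost when any of their 4 males was left out (adjusted p from 0.0816 to 0.458 and from 0.0612 to 0.786). Those of C1s1 and F9 were lost without either B6 male or male 2 of B6-Chr7MSM (adjusted p up to 0.393 and 0.270). Under quantile normalization, which put 17 of 35 checked differences at 0, all 4 were lost. Against the other strains C4bp and C1s1 were not called, at −0.162 and −1.43 mlog2 (adjusted p = 0.0568 and 0.0913). C1s1 and Serpind1 were not called without the filter (adjusted p = 0.0522 and 0.0609). Serpind1 was also lost with all features fitted together and with trended moderation (adjusted p = 0.0545 and 0.0602). Since a single pair of B6 males serves every strain, these comparisons share their reference.

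With the mean of the other strains as reference, 8 off-chromosome pairs were called, 0.711% beside 0.356% of all pairs. Serpind1 in B6-Chr4MSM and F9 in B6-Chr7MSM were among them (adjusted p = 0.00739 and 0.0127). Serpinf2 was lower in B6-Chr4MSM (−0.222 ± 0.0522 mlog2, adjusted p = 0.0204) and in B6-Chr7MSM (−0.203 ± 0.0523, adjusted p = 0.0293), and Serpind1 in B6-Chr14MSM (−0.0778 ± 0.0194, adjusted p = 0.0483). Fgg was higher in B6-Chr5MSM (0.0495 ± 0.0130 mlog2, adjusted p = 0.0443). The remaining 2, C6 and C8a in B6-Chr7TMSM, rested on male 1. C6 stood at −113 mlog2 in that male and −2.90 in the other, and C8a at −61.0 and −5.85.

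Single males held extreme values for members of several roles. Such counts were made over the members only. They cannot show whether these males were as often extreme for other genes. In B6-Chr7TMSM male 1, C6 lay further below the next lowest male (−45.4 mlog2) than the other 59 males were spread, and 4 of the 6 terminal pathway genes, C6, C8b, C9 and Hc, had their lowest value of all 60 males. C9 stood at −12.0 mlog2 in it and 0.611 in the other male of its strain, and C8b at −6.50 and 0.787. Gaps of this kind between males of a strain enter the residual SD, and so the standard errors of these genes in every strain. The same male had the highest value for Cfp, F13b, Mbl2 and Serpinc1. Its Kupffer marker score was 1.56 residual SDs from the mean of all males and its acute phase score 0.45, the 56th and 52nd of 60 from the lowest. Their part in these values was not tested.

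B6-Chr5MSM male 2 was the highest of all 60 males for 10 members. They were the 3 fibrinogen chains, F5, F10, Kng1, Masp1, Cfi, Serping1 and Serpinf2. Fgb stood at 0.390 mlog2 in this male and 0.0848 in the other male of the strain, Fga at 0.0715 and 0.0229, and Kng1 at 1.92 and −0.0669. Its mean over 20 inducible acute phase genes was 2.62 residual SDs from the mean of all males, the highest of the 60, while the other male of the strain had −0.43. Its Kupffer marker score was 2.20, the 57th from the lowest. Their part in these values was not tested. Fgg in B6-Chr5MSM, called above, rests in part on this male (0.0690 against 0.0278 mlog2). No other male had the highest value for more than 4 members.

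B6-Chr9MSM male 1 had the lowest value for 7 members and the highest for 4. Lowest were both MASP proteases, Mbl1, C8g, F7, F13b and Proc, and highest were C4bp and the 3 C1q chains. C1qb stood at 25.0 mlog2 in this male and at 10.4 in the other, and Masp1 at −1.41 and 0.247. Its Kupffer marker score was 2.54 and its acute phase score 1.34 residual SDs on the same scale, both the 58th of 60 from the lowest. Its score over 3 neutrophil markers was −2.34, the lowest of the 60. Their part in these values was not tested. The MSM males were lowest for 6 members each, and 46 of the 60 males were lowest for none. These counts, too, cover the members only.

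Across the 58 males other than MSM, C1q followed the Kupffer markers. The mean of the 3 chains and the marker score had r = 0.957 (permutation p = 1e-05, the smallest that 100000 permutations can give, adjusted p = 2e-05 over 4 relations) and Spearman's rho = 0.915 (adjusted p = 2e-05). Without the 2 males farthest from the median score r was 0.947, and the differences between the males of a strain had r = 0.978 over 29 strains. Males of a strain share their genotype, so the 58 are not fully independent. The MSM males were left out because they lie apart, a choice made after seeing the data.

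The fibrinogen chains also varied together. Fgb and Fgg had r = 0.724 (permutation p = 1e-05, adjusted p = 2e-05) and rho = 0.638 (adjusted p = 2e-05). Fga and Fgg had r = 0.480 (permutation p = 9e-05, adjusted p = 0.00012) and rho = 0.484 (permutation p = 0.00016, adjusted p = 0.000213). Fga and Fgb had r = 0.451 (permutation p = 0.0004, adjusted p = 0.0004) and rho = 0.384 (permutation p = 0.00331, adjusted p = 0.00331), over the same 58 males. Without the 2 farthest males r fell to 0.618, 0.400 and 0.346, and between the males of a strain it was 0.633, 0.417 and 0.428. All 3 relations were positive in each form.

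**Figure D5:**
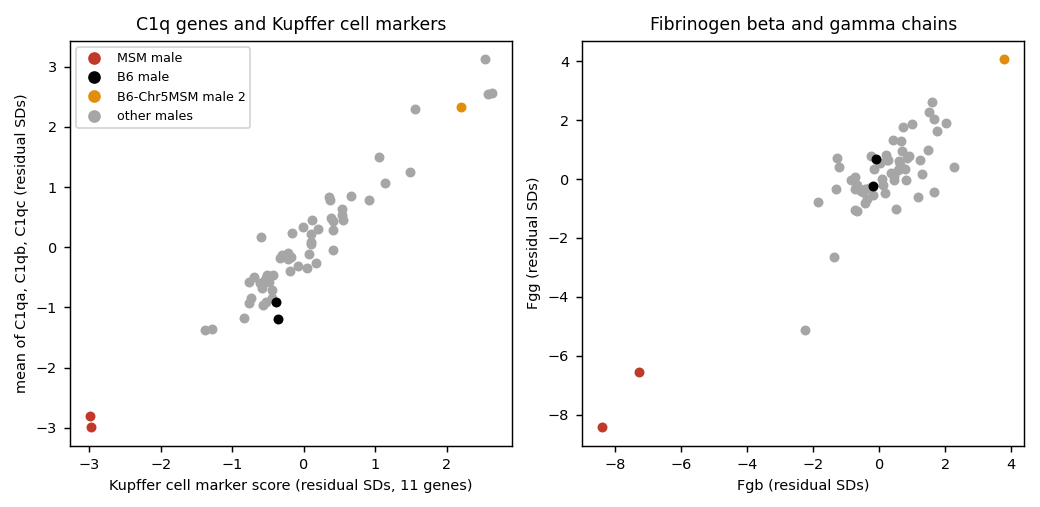
Left, the mean of C1qa, C1qb and C1qc (vertical axis) against the mean of 11 Kupffer cell markers (horizontal axis), and right, Fgg (vertical axis) against Fgb (horizontal axis), each point a male, in residual SDs from the mean of all 60 males. The MSM males (red) lie at the low end of both panels, and B6-Chr5MSM male 2 (orange) is highest for both fibrinogen chains.

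Genes of these systems outside the member list were counted in MSM for comparison. Over all genes tested, 10.3% were lower and 14.5% higher than in B6. Of 12 tested complement genes, 5 were lower and 1 higher. Lower were Fcna, which encodes ficolin A (−20.1 ± 3.82 mlog2, adjusted p = 2.1e-04), Cfhr2, related to factor H (−3.90 ± 0.853, adjusted p = 0.00101), Cr1l (−0.434 ± 0.143, adjusted p = 0.0246), Clu, clusterin (−0.161 ± 0.0602, adjusted p = 0.0481), and Vsig4, a complement receptor that is also on the Kupffer list (−14.8 ± 5.15, adjusted p = 0.0334). Susd4 was higher (17.6 ± 4.13 mlog2, adjusted p = 0.00195). Of 18 tested coagulation genes, 6 were higher and 2 lower.

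Among these coagulation genes, Vkorc1, the vitamin K reductase that warfarin blocks, was higher by 0.530 ± 0.0988 mlog2 (adjusted p = 1.6e-04). Its relative Vkorc1l1 was lower, by −0.336 ± 0.112 mlog2 (adjusted p = 0.0272). Apoh, Mst1, Mcfd2 and Plaur were higher by 0.0868, 0.822, 0.363 and 0.0542 mlog2 (adjusted p = 0.00469, 0.00527, 0.00593 and 0.0111). F8, which encodes factor VIII and is made mainly by endothelium, was lower by −0.432 ± 0.112 mlog2 (adjusted p = 0.00493). Of 20 inducible acute phase genes, 1 was higher and 2 were lower, beside 14.5% and 10.3% of all genes. Against the other strains 1 was higher and 5 were lower, beside 25.6% and 17.2% of all genes. By the mean of the 20, the B6 males ranked 1st and 5th of 60 from the lowest and the MSM males 10th and 9th. The mean of the 20 in the MSM males was 0.15 and 0.14 residual SDs above B6, beside a median of 0.51 over all males. Of 3 neutrophil markers 1 was higher and of 2 adipocyte markers 1 was lower, and of 8 endothelial and 7 stellate cell markers 1 was higher and 1 lower in each list. Cholangiocyte markers had 1 of 2 higher, and none of 2 lymphocyte and 3 pancreas markers passed the test.

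Several members had more than 1 feature, and no pair of called features of a gene had opposite signs. The second Kng1 feature was lower too, by −6.00 ± 0.533 mlog2 in MSM and −5.41 ± 0.533 in B6-Chr16MSM (adjusted p = 3.4e-10 and 1.0e-07). All 3 C1qb features were below B6 in MSM. The following were picked after their values were seen. A second F10 feature was higher, by 5.77 ± 2.10 mlog2 in MSM (adjusted p = 0.0444) and by 15.1 ± 2.10 in B6-Chr8MSM (adjusted p = 7.4e-05), while the brightest F10 feature was not called in either. A second Masp2 feature was lower in MSM by −0.350 ± 0.111 mlog2 (adjusted p = 0.0208), against 0.425 for the brightest. The second Proz feature, at −0.154 ± 0.484 mlog2, was not called in MSM.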

How the data were processed

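Liver RNA of 60 males was measured on Affymetrix whole-genome mouse arrays, 2 per male. The deposited values are log2 signals from 6.34 to 14.82, the log base being read from their range. Array medians lay between 7.416 and 7.417. How they were summarised and normalized is not given in the sources used here. The series' design names 2 different males per strain, and the animal number in a sample's title was taken as the male. Whether the 2 arrays of a male share an RNA extract is not stated. Features were named through the platform annotation and RefSeq GRCm38.p6: 34945 name 1 gene, 932 several and 9160 none. Features naming several genes were left out.

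The arrays of a male were averaged. The brightest feature of each gene was kept if 2 or more males exceeded 7.417, the median of all values. limma 3.58.1 (R 4.3.3) fitted 1 mean per strain to 11949 genes (30 residual and 0.592 prior degrees of freedom), with Benjamini-Hochberg adjustment within each contrast, two-sided. Correlations used 100000 permutations (scipy 1.17.1, numpy 2.4.6). The fit was tested on simulated data. The number of arrays limits the precision.

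Genes named are the members called in MSM, every member in the strains with its chromosome, off-chromosome calls, males standing apart, members whose features disagree, and up to 6 called genes of each other list. Vkorc1l1 was named in addition, beside Vkorc1, after its value was seen. Members and lists were chosen with earlier results of these data known. Alternatives were other filters, all features, quantile normalization, arrays with the male as a random effect, trended moderation, another reference, B6 and MSM alone, and each male left out. Adjustment within a chromosome, MSM against the strain carrying the chromosome, and correlations without MSM were added after seeing the data. Promoter windows are RefSeq's, 1 per gene, for 36 of the 46 listed genes.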

Additional observations from a re-analysis of the deposited data

How the results depend on the processing

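The 14 members called in MSM became 16 with all features fitted together, 13 without the filter, 17 with arrays and the male as a random effect, 12 with B6 and MSM alone (9 of the 14 and 3 others), 24 with the other strains as reference and 7 under quantile normalization (4 lower, C8a, C8b, Klkb1 and Kng1, and 3 higher, C1ra, Cfp and F5). Over all genes quantile normalization called 9783 higher and 344 lower in MSM. The t of C1ra, Cfp and F5 (2.42, 5.77 and 2.19) lay below its median over all genes, 6.05. Quantile normalization also left 3 own-chromosome calls of 9 against B6, 4 of 11 against the other strains, 13 of 24 in MSM against the other strains and 0 of 4 off the chromosome. It shifted the median difference of all genes, MSM minus B6, from 0.592 to 6.02 residual SDs and set 17 of 35 differences to 0 (within 1e-06 mlog2), out of the members' differences from B6 that were called in MSM, in an own-chromosome strain or off the chromosome, with the own-chromosome values of those called in MSM. The cause was not tested. The random effect gave 22 off-chromosome calls, 22 own-chromosome calls against the other strains and 1 call between C and T strains. No filter gave 2 off-chromosome calls, and the other strains as reference 8. Adjusting within the chromosome gave 11 own-chromosome calls. With 1 male left out, counts ranged from 11 to 12 in MSM, 3 to 10 with the own chromosome (3 without B6 male 1 and 4 without B6 male 2), 0 to 16 off it (0 without either B6 male, 16 without B6-Chr9MSM male 2, 9 without B6-Chr7TMSM male 2, 1 without B6-Chr7MSM male 2), 0 to 1 between C and T, 10 to 14 with the own chromosome against the other strains, and 14 to 23 in MSM against the other strains. A strain left with 1 male is assumed to vary like the others. Uncalled F13b in B6-Chr1MSM changed sign under quantile normalization (2.28 mlog2) and against the other strains (0.0362 mlog2), and uncalled Serping1 in B6-Chr2TMSM ranged from −0.0596 to 0.0283 mlog2 with 1 male left out. C8a and Klkb1, in MSM and with their own chromosome, and Kng1 in MSM were called under every alternative run. No paired analysis was possible because the labels' animal numbers name different males in each strain and pair none of them across strains. The limits are 2 males per strain, 1 shared pair of B6 males and shrunken deviations, so effect sizes cannot be compared between genes.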
